A study of Bos taurus with 6 samples.

Results

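Keratins, claudins and a set of epithelial and mesothelial genes were followed in intramuscular fat (IMF) of castrated (steers) and intact (bulls) male cattle. The members were the genes of the mRNA table whose symbol is KRT or CLDN with a number, and the adhesion, desmosome, splicing and mesothelial genes EPCAM, CDH1, CDH3, ESRP1, ESRP2, DSP, JUP, MSLN, UPK3B and WT1. In all 80 of the 25444 genes in the table were members, namely 49 keratins, 21 claudins and 10 others. PKP1 and PKP3, desmosome genes of the same rule, were not analysed here. All animals were Chinese Qinchuan cattle, weaned at 3 months and slaughtered at 24 months, and castration of the steers was at 6 months. IMF was dissected from the sternomandibularis muscle. The mRNA data are 1 library of steers and 1 library of bulls, each from RNA pooled over 6 animals by the paper and over 3 by the sample labels, so that no difference between them has a replicate check. In such bulk RNA, fewer cells of a type and less RNA per cell cannot be told apart.

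Keratins are the intermediate filament proteins of epithelial cells, and each filament is built from a type I and a type II chain. Simple keratins (KRT8 and KRT7 of type II, KRT18 and KRT19 of type I) belong to single-layered epithelia, ducts and mesothelium, whereas other keratins belong to the layers of skin and to hair. Claudins form the strands of tight junctions, cadherins hold cells together at adherens junctions, and desmoplakin (DSP) and plakoglobin (JUP) tie keratin filaments to desmosomes. Fat cells and their stroma carry vimentin filaments instead, and mesothelium is the simple epithelium that covers visceral organs and visceral fat.

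The libraries held 12677375 counts in steers and 9868415 in bulls, and they were scaled by size factors of 1.04 and 0.959 (median of ratios). A gene was called when an exact binomial test of its pair of counts gave a Benjamini-Hochberg adjusted p under 0.05 over 17752 genes and the ratio was over 2. That test compares the 2 libraries and not castration with its absence, and the 95% intervals below are exact and cover counting error only. Markers of the labelled tissue were abundant, with 4513 and 6651 counts of ADIPOQ, 4499 and 5386 of PLIN1 and 9931 and 7501 of CIDEC in steers and bulls. FABP4, the fatty acid carrier of fat cells, was called lower in steers (3951 and 7574), alone among 8 adipocyte markers. Transcripts of muscle fibres were present in both pools, and of 8 muscle markers MYH1 was called higher in steers and MYH7 lower (675 and 2906). The steer library also held transcripts of male germ cells. Of 24 spermatid and sperm genes, a list written after the counts had been seen, 22 had a count, with 887 counts in steers and 5 in bulls. PRM1, the sperm protamine, had 328 counts in steers and 0 in bulls. It was 100-fold higher in the steer library with bulls set to a floor of 3 counts, and its exact 95% interval starts at 81.2-fold. Of 13 measured genes of Sertoli and Leydig cells, a list also written after the counts had been seen, 3 were called higher in steers, LHCGR (119 and 20 counts), CYP17A1 (34 and 7) and INHBB (30 and 6). A further 7 had no count in steers, among them AMH, STAR, CYP11A1 and NR5A1. The germ cell transcripts lay in the library in which the simple keratins were high, and their part in the results below was not tested.

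Of the 80 members, 42 had no count in either library, 18 had 1 to 9 counts in all and 20 had at least 10. The test called 6 members higher in steers, KRT7, KRT8, KRT18, KRT19, EPCAM and CLDN1, and 1 lower, CLDN15. Over all genes tested, 4.37% were called higher in steers and 8.13% lower, or 12.5% in either direction. Among genes with at least 10 counts over both libraries these shares were 5.1% and 9.59%, and among the 20 such members 5 were called higher and 1 lower. Transcript lengths were not used, so counts are compared between the libraries for each gene and not between genes.

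**Figure D1:**
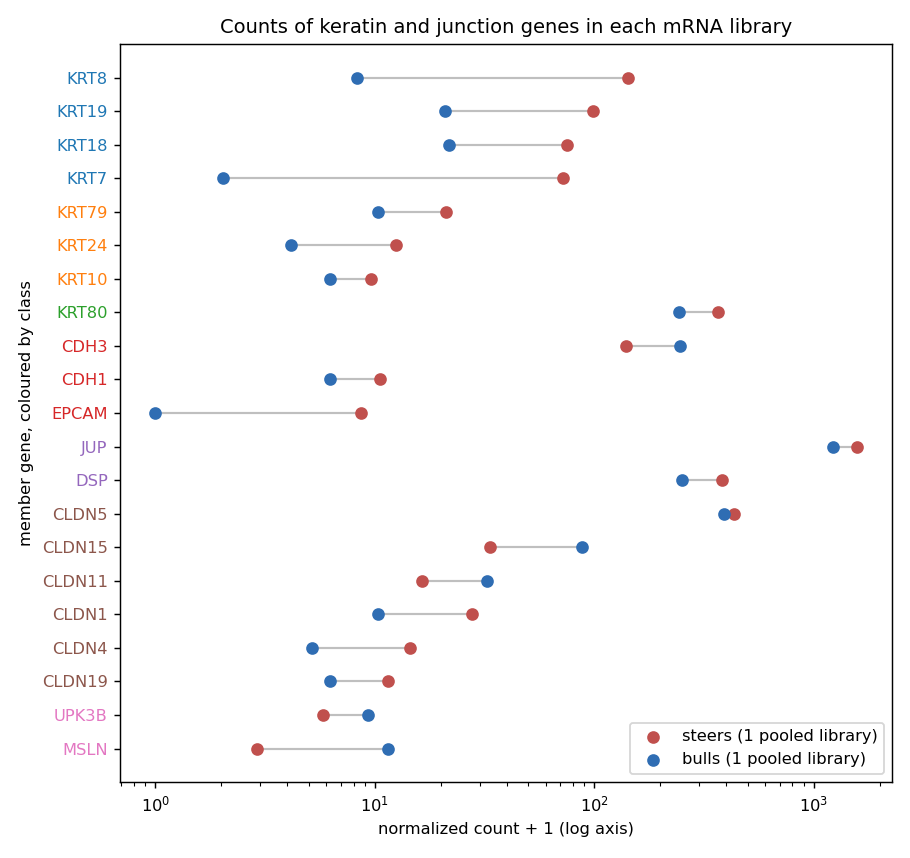
Normalized counts (plus 1, log axis) of the 20 members with at least 10 counts and of EPCAM, in the steer library (red) and the bull library (blue), with gene names coloured by class. The gaps of KRT7 and KRT8 are the widest, with 70.9 against 1.04 and 142 against 7.30 normalized counts, and CLDN15, CDH3 and MSLN lie on the other side with bulls higher.

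All 4 simple keratins with counts were higher in steers, and all 4 were called. KRT8, the type II keratin found in nearly every simple epithelium, was counted 148 times in the steer pool and 7 times in the bull pool, a log2 ratio of 4.28 (interval 3.20 to 5.62). Its partner KRT18, of type I, had 77 and 20 counts and a log2 ratio of 1.82 (1.10 to 2.61). KRT7, a type II keratin of ducts and glands, was counted 74 times in steers but 1 time in bulls, at a log2 ratio of 6.09 (3.56 to 11.4). KRT19, the small type I keratin of ducts and mesothelium, had 102 and 19 counts and a log2 ratio of 2.30 (1.59 to 3.09). KRT20, the simple keratin of intestinal epithelium, had 0 counts in both libraries. KRT8 and KRT18 have processed pseudogenes in many mammals, and how the authors counted reads that match several places is not given in the sources used here.

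Between these 2 libraries KRT7 and KRT8, of type II, did not shift by the same factor as KRT18 and KRT19, of type I. KRT7 and KRT8 together went from 8 counts in bulls to 222 in steers, a 25.5-fold difference (12.7 to 59.8). KRT18 and KRT19 together had 39 counts in bulls and 179 in steers, 4.22-fold more after scaling (2.97 to 6.13). The fold of the type II pair was 6.02 times that of the type I pair, with an exact conditional interval of 2.69 to 15.3. The intervals of KRT7 and KRT8 both lie above those of KRT18 and KRT19.

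**Figure D2:**
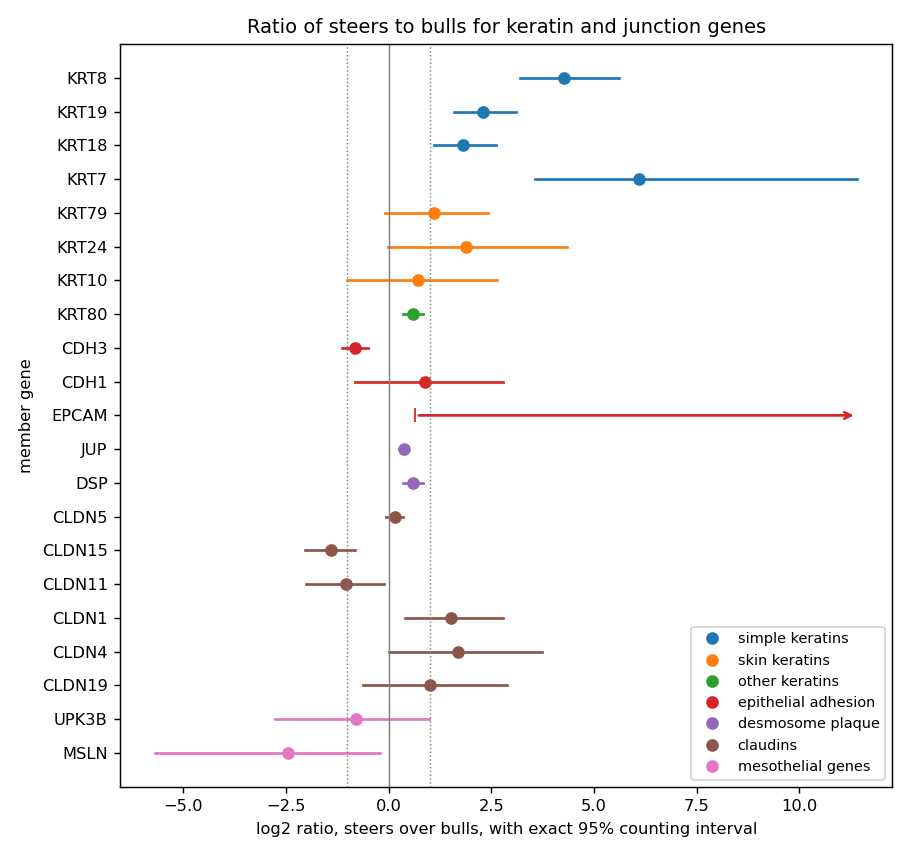
Log2 ratio of steers over bulls for the same 21 genes, with exact 95% counting intervals and colours by class; dotted lines mark a 2-fold difference, and the arrow of EPCAM starts at the lower limit of its interval, 0.65. The intervals of the simple keratins lie wholly above the upper dotted line, those of the skin keratins reach below 0, and DSP, JUP and KRT80 sit between 0 and 1.

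Keratins of skin and other stratified epithelia were scarce in both pools. Of the 17 measured, 9 had no count, among them KRT14, KRT15, KRT16 and KRT13, and 0 of the other 8 were called. KRT5, the basal keratin of epidermis, had 3 counts in each library, and KRT10, of the upper epidermal layers, had 9 and 5. KRT79, of sebaceous ducts, had 21 and 9 counts and a log2 ratio of 1.10 (-0.09 to 2.41). KRT24 had 12 and 3 counts and a log2 ratio of 1.88 (-0.01 to 4.34), and KRT12, the keratin of the cornea, had 5 and 0. KRT9 had 1 and 2 counts, and KRT17 and KRT6A had 0 and 1 each. Summed over the class there were 51 counts in steers and 24 in bulls, 1.95-fold more in steers (1.18 to 3.32). Hair and hair follicle keratins were scarcer still, with 19 of 24 at 0 in both libraries and 8 counts in each over the rest, of which KRT75 had 1 and 6 and KRT72 had 5 and 1. KRT31, KRT71 and KRT81 had 1 count each in all. Of 10 genes of epidermal differentiation 0 were called and 5 had no count, FLG and LOR among them, and the list had 26 counts in steers and 17 in bulls.

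KRT80, a type II keratin with a wide distribution, was well covered, with 383 counts in the steer pool and 233 in the bull pool. Its log2 ratio of 0.59 (0.36 to 0.84) did not reach the 2-fold threshold. KRT7 and KRT80 are neighbours in the RefSeq annotation of the assembly ARS-UCD2.0, as are KRT8 and KRT18, and the interval of KRT80 lies wholly below that of KRT7. KRT23 had 4 and 0 counts and KRT222 had none. The simple keratins gave 47.3% of all keratin counts in steers and 15.1% in bulls.

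Of 6 intermediate filament genes of other cells, 0 were called higher in steers and 2 lower. Vimentin (VIM), the filament of mesenchymal cells, had 105796 and 98846 counts and a log2 ratio of -0.02. Desmin (DES), the filament of muscle cells, was called lower in steers with 3721 and 8207 counts (log2 ratio -1.26), and so was lamin B1 (LMNB1), of the nuclear lamina, with 53 and 144 (-1.56). LMNA, the other main lamin gene, had 4057 and 3664 counts.

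The mesothelial genes had fewer counts in steers, the opposite direction to the simple keratins. MSLN, the surface protein mesothelin, was counted 2 times in steers and 10 times in bulls, a log2 ratio of -2.44 (-5.67 to -0.21), and was not called (adjusted p = 0.0666 in the exact binomial test). UPK3B, an uroplakin of mesothelium, had 5 and 8 counts, and WT1, a transcription factor of mesothelium and kidney, had 1 and 2. Together the 3 reached 8 counts in steers against 20, and the sum was 2.72-fold higher in bulls (log2 ratio -1.44, interval -2.84 to -0.20). Of 9 further mesothelial markers measured, BNC1 with 13 and 2 counts was called higher in steers and 0 were called lower. LRRN4 had 0 counts in both libraries, CALB2 had 3 and 1 and MUC16 had 1 and 0. UPK1B, with 0 and 3 counts, and CLIC5, with 48 and 55, had fewer in steers and were not called. The most counted of these markers, PRG4 (17564 and 12355), PKHD1L1 (142 and 253) and GPM6A (91 and 156), are also made by other cells and were not called.

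**Figure D3:**
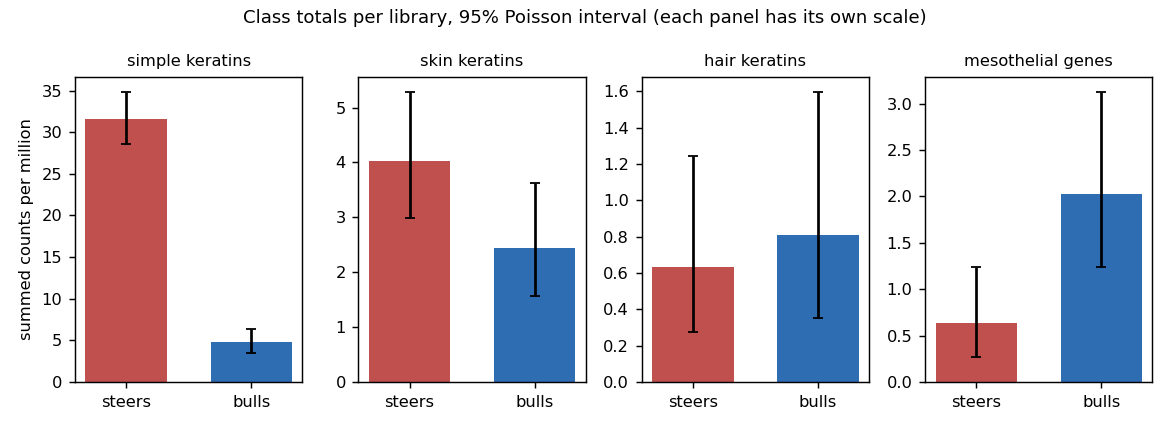
Summed CPM (counts per 1000000 of the library) of simple keratins, skin keratins, hair keratins and mesothelial genes in the 2 mRNA libraries, with exact 95% Poisson intervals; each panel has its own axis from 0. Simple keratins stand at 31.6 in steers and 4.76 in bulls, and mesothelial genes at 0.631 and 2.03.

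Simple keratins, skin keratins and mesothelial genes differed in their ratio between the libraries. The simple keratins summed to 401 counts in steers against 47 in bulls, 7.84-fold more in steers (5.78 to 10.8), and a median log2 ratio of 3.23, where the median of all genes tested was 0.01. Their fold was 4.0 times that of the skin keratins (exact conditional interval 2.15 to 7.33) and 21.1 times that of the mesothelial genes (8.34 to 58.5). It was 5.91 times that of the 2 desmosome plaque genes (4.32 to 8.24) and 7.66 times that of the claudins (5.51 to 10.8). These intervals hold counting error between 1 pool and 1 pool, and the spread between animals is not in them.

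EPCAM, an adhesion molecule of simple epithelia, had 8 counts in steers and 0 in bulls. It was 2.45-fold higher in steers with bulls set to the floor of 3 counts, and its exact interval starts at 1.57-fold. It was called although its total lies under the 10 counts set for naming a gene. CDH1, or E-cadherin, had 10 and 5 counts and was not called (log2 ratio 0.88, interval -0.81 to 2.78). CDH3, or P-cadherin, its neighbour in the RefSeq annotation, had 145 and 234 counts and a log2 ratio of -0.81 (-1.12 to -0.51), under the 2-fold threshold. The total of the 3 genes had a log2 ratio of -0.67, with most of its counts from CDH3, whereas their median was 0.82. The splicing regulators ESRP1 and ESRP2, which set epithelial exon choice, had 0 counts each in steers and 1 each in bulls. A count of 0 allows up to 0.237 CPM in the steer library and 0.304 in the bull library.

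Among transcription factors of epithelia GRHL2 and OVOL2 had no count, KLF5 had 186 and 170, GRHL1 had 17 and 25 and TP63 had 3 and 10, and 0 of 8 were called. GRHL3, with 7 and 0 counts, was not called. Of the 6 repressors of CDH1 known from mesenchymal cells, ZEB2 was called lower in steers (88 and 169 counts, log2 ratio -1.06). ZEB1 had 774 and 626 counts, SNAI2 had 711 and 399 and TWIST1 had 582 and 318, and none of these 3 was called. In a list of 16 genes of glandular epithelium written after the counts had been seen, 0 were called lower in steers, AQP5 had 31 and 20 counts and was not called, and PIGR, WFDC2, FOXA1, ELF5 and PIP had none.

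The desmosome plaque genes had many counts and small differences. JUP, which also serves adherens junctions of other cells, had 1649 counts against 1176, a log2 ratio of 0.37 (0.26 to 0.47). DSP had 396 and 241 counts and a log2 ratio of 0.59 (0.36 to 0.83). The desmosomal cadherins of stratified epithelium, DSG1, DSG3 and DSC3, had 0 counts in both libraries, DSG2 had 1 and 2 and PKP2 had 2 and 4. DSC2 was called higher in steers with 50 and 22 counts (log2 ratio 1.06, interval 0.31 to 1.86), alone among 21 further epithelial and junction genes, of which 0 were called lower. The widely expressed junction genes CTNNB1 (5259 and 3334), CTNNA1 (4622 and 3760) and PPL (2390 and 1877) had the most counts in that list.

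**Figure D4:**
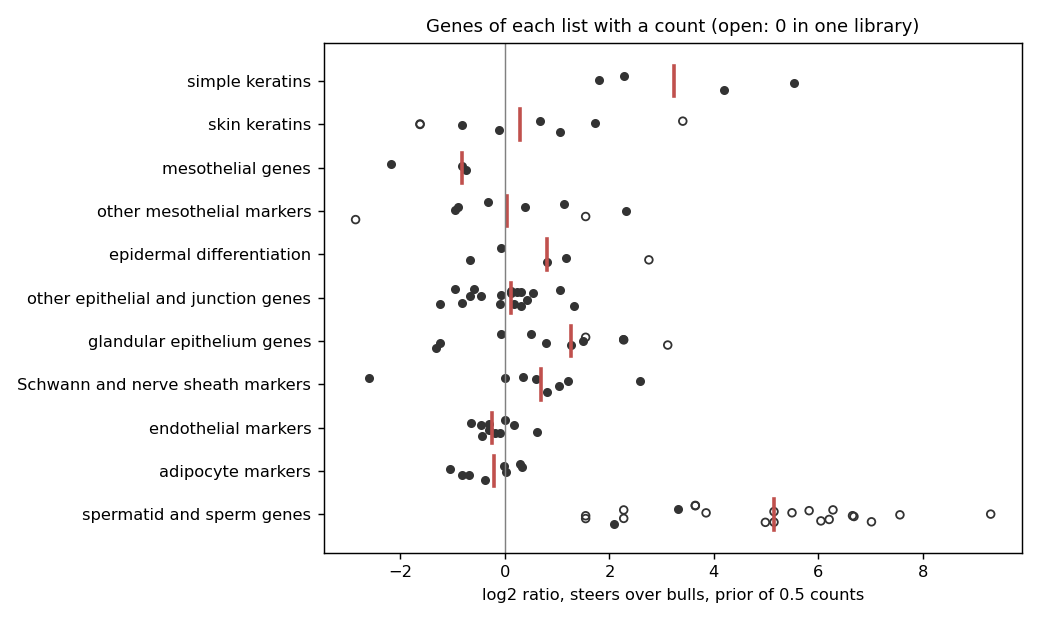
Log2 ratio of steers over bulls, with a prior of 0.5 counts, for each gene with a count in lists of cell type markers; open points had 0 counts in 1 library and the red bars are medians. All simple keratins and all spermatid genes lie to the right of 0, the endothelial and adipocyte genes are spread around it, and the 3 mesothelial genes MSLN, UPK3B and WT1 lie to the left, whereas the other mesothelial markers lie on both sides.

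Claudins went in both directions, and 12 of the 21 had no count in either library. CLDN5, the claudin of endothelial cells, had 449 counts in steers against 373, at a log2 ratio of 0.15 (-0.06 to 0.35). None of 10 endothelial markers was called, among them PECAM1 (4541 and 3723 counts), VWF (3499 and 3664) and KDR (676 and 663). CLDN15, a channel-forming claudin best known from intestine, had 34 and 83 counts and was called lower in steers (log2 ratio -1.41, interval -2.03 to -0.82). CLDN11, known from myelin and Sertoli cells, had 16 and 30 counts and a log2 ratio of -1.03 (-2.00 to -0.11) and was not called.

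CLDN1, a claudin of epidermis and of the sheath of nerves, had 28 and 9 counts and was called higher in steers (log2 ratio 1.52, interval 0.39 to 2.78), but not under scaling by total counts, where its log2 ratio was 1.28. With an assumed biological coefficient of variation of 0.2 in edgeR's exact test, the calls of CLDN1, CLDN15 and EPCAM were lost and those of the 4 simple keratins held, and with 0.4 those of KRT7 and KRT8 alone held. CLDN4, of simple epithelia, had 14 and 4 counts and a log2 ratio of 1.69 (0.01 to 3.75) and was not called. CLDN19, known from kidney and Schwann cells, had 11 and 5 counts. The epithelial CLDN7 had 3 and 2 counts, CLDN10 had 5 and 0 and CLDN18 had 3 and 0. Among 8 markers of Schwann cells and nerve sheath, MBP, a myelin protein gene, was called higher in steers (162 and 64 counts) and 0 were called lower, and the list had 5598 counts in steers and 3562 in bulls. Their part in the values of CLDN1 and CLDN19 was not tested.

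MicroRNAs known from epithelial cells were read in 4 small RNA libraries, 2 for each group, which are pools of 3 animals by the paper and carry 1 head each in the labels. These libraries held 6556511 to 10452582 counts. The miR-200 family represses ZEB1 and ZEB2 and through them favours CDH1. Of 7 listed epithelial miRNAs, 6 were in the small RNA table. Their mature sequences, as the study lists them, are shown with the seed (bases 2 to 8) in capitals, because the seed sets the targets and divides the miR-200 family into 2 groups.
bta-miR-141: tAACACTGtctggtaaagatgg
bta-miR-200a: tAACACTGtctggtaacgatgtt
bta-miR-200b: tAATACTGcctggtaatgatg
bta-miR-200c: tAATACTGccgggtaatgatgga
bta-miR-429: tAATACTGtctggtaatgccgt
bta-miR-205: tCCTTCATtccaccggagtctg

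MiR-141 alone of the 6 passed the filter on low counts. It had 6 and 6 counts in the steer libraries and 30 and 22 in the bull libraries. After TMM scaling the bull libraries averaged 3.16 ± 1.14 CPM of miR-141 (SD, n = 2) and the steer libraries 0.735 ± 0.049. The log2 ratio was -2.08 (SE 0.67), and edgeR's quasi-likelihood test over 1073 sequences gave an adjusted p of 0.0194. Of all these sequences 14.2% were called, 7.08% lower in steers and as many higher. The call was lost in DESeq2 (adjusted p = 0.0941) and in edgeR with each library left out in turn, at log2 ratios from -2.44 to -1.48 and adjusted p from 0.0549 to 0.375. The others were at the limit of detection, with miR-200a at 1, 0, 1 and 3 counts (steers first), miR-200b at 1, 0, 0 and 0 and miR-200c at 0, 0, 1 and 4. MiR-429 had 0, 1, 1 and 1 counts and miR-205 had 0, 2, 3 and 6. MiR-141 thus lay lower in the steer libraries, whereas the simple keratins lay higher in the steer pool.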

How the data were processed

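IMF mRNA was measured in 1 pooled library per group and small RNA in 2 libraries per group. The authors made the deposited mRNA counts from trimmed Ion Proton reads, which MapSplice placed on a bovine assembly. Neither the counter nor its strand setting is given in the sources used here. For the deposited miRNA counts, BWA matched reads against miRBase and the cattle assembly. The submitters' processing notes name a human genome build, whereas the paper names a bovine one. Both tables hold raw counts per feature.

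Libraries were grouped by their labels. The mRNA counts were scaled by median-of-ratios size factors and tested with an exact binomial test, two-sided as 2 times the smaller tail (scipy 1.17.1, numpy 2.4.6), over genes with at least 1 count. The paper's EBSeq was not used. All miRNA sequences that passed filterByExpr were fitted in edgeR 4.0.16 (R 4.3.3) with TMM, glmQLFit and glmQLFTest. DESeq2 1.42.0 was an alternative. Both tests were tested on simulated data. The mRNA counts were simulated with counting error only, so that run cannot check the effect of a spread between pools. Members with at least 10 counts over both libraries were named, and of the other lists the genes called and the 3 with the most counts; further genes of these lists, and EPCAM, were named after their values were seen. Some called genes of the other lists are not reported here. Members, classes and lists were chosen with earlier results of these data known. Of the members, 78 are symbols in the RefSeq table. Since RNA was pooled, p-values over libraries measure the spread between pools at most.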

Additional observations from a re-analysis of the deposited data

Results flagged for a closer look

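Spermatid and sperm genes, which no comparison of keratins or junction genes uses, had 887 counts in the steer library and 5 in the bull library. This stands out because the level in the library of intact males was near 0. The list of 24 genes was written after the counts had been seen, so its calls are no test of the list. Of the 24 genes, 20 had counts in steers only and 14 were called higher in steers by the exact binomial test. Over all genes tested, 4.37% were called higher. GSG1 (98 counts), OAZ3 (67), ODF1 (53) and GAPDHS (52) had 0 counts in bulls.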

How the results depend on the processing

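Leaving out an mRNA library was not possible with 1 per group. EdgeR's exact test with pools assumed to vary by a coefficient of 0.4 left 2 members called higher in steers, KRT7 and KRT8, and 0 lower; with 0.2 the 4 simple keratins were called and again 0 lower. Over all genes tested, 0.293% were then called higher and 0.524% lower with 0.4, and 2.07% and 4.29% with 0.2. Scaling by total counts, which moved the median log2 ratio of all genes tested to -0.23, called 4 members lower, CLDN15, CDH3, CLDN11 and MSLN, and ended the call of CLDN1, while 11.3% of all genes tested were called lower and 3.04% higher. Without a fold threshold 2 were lower (CLDN15 and CDH3) and 9 higher (18.3% and 19.9% of all genes). With the minimum-likelihood binomial test, chosen after seeing the data, 2 were lower, CLDN15 and MSLN (8.5% of all genes). All 7 alternatives called KRT7 and KRT8 higher.

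The total of the simple keratins had log2 ratios of 2.73 with total counts and 2.95 with TMM. With total counts the log2 ratio of the desmosome plaque total was 0.17 and its median 0.24, and that of the claudin total was -0.21, compared with 0.03, so its sign followed the scaling. The claudin median of 0.95 (with genes at 0 in one library placed at their bound, 0.50) was 0.73 with total counts, 0.61 with a prior of 5 counts and 0.55 over claudins with at least 10 counts. With at least 10 counts the skin keratin median was 1.06, compared with 0.29 (0.64 at the bounds), and the median of EPCAM, CDH1 and CDH3 was 0.0044 over the 2 named, compared with 0.82, and 0.51 with a prior of 5. The median of the hair keratins (1.54) and their total (-0.12) differed in sign.

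Among epithelial miRNAs 1 was called in the edgeR fit and 0 were called with total counts, with every sequence that had a count, or in DESeq2 at an adjusted p under 0.05. At an unadjusted p under 0.05 there were 1, 2 (miR-141 and miR-200c) and 1 in these fits. In the main edgeR fit 293 of all 1073 sequences tested were under that threshold, and the shares in the other fits were not counted. Leaving out each of the 4 libraries in turn gave 0 calls each time, the lone library of a group being assumed to vary like the other group, and miR-141 had an unadjusted p under 0.05 in 3 of the 4. With the replicate number as a block 1 was called, and miR-141 had a log2 ratio of -2.05. The numbers are not known to pair the libraries (correlation of deviations 0.30 over 1073 sequences), and the block moved the calls over all sequences from 152 to 252; there was 1 with total counts, 70 with every sequence that had a count, 125 in DESeq2 and 26 to 151 with a library left out.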

Other observations

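The rat sequence miR-203a-3p, listed among homologs in other species and singled out after its counts had been seen, had 60 and 37 counts in the steer libraries and 218 and 135 in the bull libraries. MiR-203 is known from stratified epithelium, and its log2 ratio was -1.85 (SE 0.53, adjusted p = 0.0092 in edgeR's quasi-likelihood test). The call was lost with total counts and without the first or second steer library or the first bull library, with log2 ratios from -2.29 to -1.08 across the 4 fits with 1 library removed. The counts of rat miR-203b-5p were nearly equal to it in every library (58, 36, 226 and 120), and the 2 entries were not treated as independent.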
